A study of Mus musculus with 15 samples.

Results

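Fibroblasts sorted from the mouse thymus were compared at day 3 with day 1 after sublethal irradiation. The question was which changes of the first day reversed, overshot or went on. The 10 libraries compared were the 5 labelled day 3 and the 5 labelled day 1, out of 15 in all. The 5 untreated libraries served as the reference for what a reversal is. All mice were young male wild-type animals. Day 1 and day 3 mice had received 425 rad, and the untreated controls were age-matched. The labels give the sort gate as CD45-EpCAM+CD34+CD31-PDGFRalpha+ and name no transgene or graft. Epcam RNA was close to absent, at 11, 10 and 10 UMIs in all in the untreated, day 1 and day 3 groups. The EpCAM+ part of the label was thus not borne out at the RNA level. Pdgfra and Cd34, the other positive gate genes, were present in every library. The labels do not say whether the 5 libraries of a group came from separate mice, so the p-values measure the spread between these libraries.

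Thymic fibroblasts make the capsule and the perivascular mesenchyme of the organ, lay down its collagen scaffold and supply growth factors such as Fgf7, Fgf10 and Bmp4 to the thymic epithelium. Irradiation breaks DNA, and the p53 protein then switches on genes for cell-cycle arrest, repair and death. DNA fragments, dying cells and cytokines can switch on interferon-stimulated genes and the acute-phase response. The thymus shrinks after such a dose as thymocytes die, and regrows afterwards.

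RNA was captured at its 3' end (MARS-seq) and counted as unique molecular identifiers (UMIs), one per captured molecule, and levels are given as CPM, the counts scaled to a common library total. In these bulk samples fewer cells of a type and less RNA per cell cannot be told apart, and levels were not compared between genes. Totals were 740169 to 2638344 UMIs per library at day 1 and 1967148 to 3750214 at day 3. Of 12763 genes, 10207 passed the filter on low counts. On the first principal component, with 46.8% of the variance, untreated libraries lay between -48.0 and -32.6, day 3 libraries between -15.9 and -7.32 and day 1 libraries between 30.4 and 86.6. The shallowest library, day 1 replicate 1, stood apart from the other 4 of its group on the second component (14.6% of the variance), at 66.0 against -27.3 to -24.0. Results that move without it are given beside their values, and the labels name no batch.

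Between day 1 and day 3, 3335 genes, 32.7% of those tested, differed at an adjusted p under 0.05 in edgeR's quasi-likelihood test. Of these, 1644 genes were higher at day 3 (16.1%) and 1691 were lower (16.6%), and 601 of the risers and 650 of the fallers changed at least 2-fold. For 1076 genes (10.5%) all 5 day 3 values lay above all 5 day 1 values, and for 1028 genes (10.1%) they lay below. Day 1 against untreated had 4717 calls (46.2%), of which 2355 were higher (23.1%) and 2362 lower (23.1%), and day 3 against untreated had 1883 calls (18.4%). Scaling to the total count in place of the TMM factors moved the median of all genes up by 0.144 on the log2 scale and the share of risers among the calls from 49.3% to 65.7%. The even split between risers and fallers rests on the scaling. In the authors' deposited table, 3618 genes had an adjusted p under 0.05 between day 3 and day 1. Of the 3335 genes above, 3204 were called there in the same direction and 0 in the opposite one.

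Each gene was then placed by its course. The 2595 genes that were called at day 1 and again, with the opposite sign, between day 1 and day 3 made up 55.0% of the day 1 calls and 77.8% of the calls between day 1 and day 3. Among them, 2116 no longer passed the test against untreated at day 3 and are called returned (1009 had risen and 1107 had fallen after day 1). Another 423 were still called on the side of day 1 and are called partial, and 56 were called on the other side of untreated and are called overshoot. Failing the test does not show equality, but the median absolute log2 difference of the returned genes from untreated was 0.18 at day 3 against 0.94 at day 1. A further 15 genes kept moving in the direction of day 1, and 725 genes were called after day 1 but not at day 1 (late change), which does not show that they were unchanged at day 1. The held genes, 896 in number, were those with no call after day 1 and a call against untreated at day 3 in the day 1 direction. The remaining day 1 calls, 1211 genes, were unresolved, neither called after day 1 nor against untreated at day 3. These comparisons share libraries: a deviation of the day 1 group enters the first step and the second with opposite signs, so the counts describe these libraries and were not tested. Where a list below had 0 calls in a direction in edgeR's test, DESeq2 gave 0 there too, and at most 1 member had an unadjusted p under 0.05, with the exception of 3 mesothelial markers on the falling side. Genes described by group means, other than those of the naming rule, were chosen from the lists after their values were seen. Without day 1 replicate 1 the overshoot count was 90 and that of genes that kept moving was 24.

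**Figure D1:**
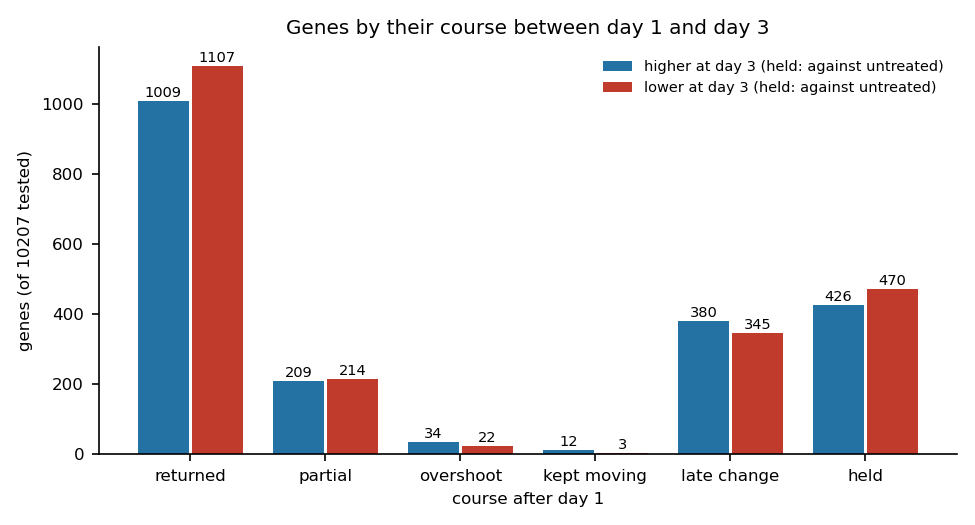
Number of genes by their course after day 1, with genes higher at day 3 in blue and genes lower at day 3 in red (for held genes, the side of untreated on which they stayed). The returned genes were the most numerous, 1009 rising and 1107 falling, and overshoot (34 and 22) and kept moving (12 and 3) the fewest.

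Interferon-stimulated genes fell widely. Of 53 tested interferon-stimulated genes, 51 fell between day 1 and day 3, against 16.6% of all genes, 1 rose and 1 was not called. The list's median log2 change was -2.02 between day 1 and day 3, beside a median of 0.01 over all genes, after 2.62 at day 1 against untreated. Its median at day 3 was still 0.71 above untreated on the log2 scale, and 22 of the 53 genes were still called above untreated while 30 had returned. The count of 51 was the same without day 1 replicate 1.

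The interferon-stimulated response element is a DNA element bound by a complex that contains STAT2 and IRF9. Letters of this kind were searched for near these genes. In the 250 bases before the RefSeq start sites (build GRCm38.p6), the letters GAAANNGAAA, on either strand and with N for any base, were found for 17 of the 38 genes, among the 51 that fell, that have an entry (44.7%). The same letters were found for 3.28% of the 8177 tested genes with an entry. The stretches below, from 6 genes with a match and the smallest p after day 1, show the letters found for these 17 genes. The matches end 56 (Isg15), 65 (Oas3), 114 (Bst2), 24 (Igtp), 112 (Ifit3) and 212 (Stat2) bases before the start site. The stretches lie at chr4:156200850-156200909 (Isg15, minus strand), chr5:120777700-120777759 (Oas3, minus), chr8:71537562-71537621 (Bst2, minus), chr11:58199497-58199555 (Igtp, plus), chr19:34583382-34583441 (Ifit3, plus) and chr10:128270251-128270310 (Stat2, plus). Capitals mark the match nearest to the start site, which reads as its reverse complement in Ifit3 and Stat2. The window of Isg15 holds 3 matches, overlapping ones included, and those of Bst2 and Ifit3 hold 2 each. A match is a description of letters and not of binding.
Isg15: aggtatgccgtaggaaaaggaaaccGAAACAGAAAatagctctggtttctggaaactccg
Oas3: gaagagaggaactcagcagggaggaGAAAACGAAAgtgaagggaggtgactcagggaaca
Bst2: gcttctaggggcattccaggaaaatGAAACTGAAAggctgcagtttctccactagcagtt
Igtp: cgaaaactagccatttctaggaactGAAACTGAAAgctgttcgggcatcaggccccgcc
Ifit3: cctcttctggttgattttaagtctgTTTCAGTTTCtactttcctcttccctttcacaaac
Stat2: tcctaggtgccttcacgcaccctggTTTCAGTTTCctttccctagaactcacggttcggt

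Isg15, a ubiquitin-like protein that is attached to other proteins, was at 213, 169.7, 126, 146 and 186 CPM in the 5 untreated libraries, 5461, 5233, 4426, 6356 and 4430.4 at day 1 and 304, 454, 282, 551 and 313 at day 3. All 5 day 3 values lay far below day 1 and all lay above every untreated value. Its log2 change between day 1 and day 3 was -3.77 ± 0.21 (SE; edgeR adjusted p = 6.7e-11), and at day 3 it was still 1.18 above untreated (adjusted p = 0.00031). Irf7, the transcription factor that amplifies type I interferon production, was at 4291, 3571, 3131, 3435 and 2392 CPM at day 1 and 462, 515, 522, 579.7 and 429.7 at day 3, beside 149.7, 116, 126, 151 and 153 in untreated libraries. The 3 groups did not overlap, with day 3 between the others, and the fall was -2.74 ± 0.17 on the log2 scale (edgeR adjusted p = 1.9e-10). Zbp1, a sensor of left-handed nucleic acids, followed the same order, at 68.9, 53.3, 48.2, 52.7 and 54.5 CPM untreated, 798, 983, 775, 1084 and 859.6 at day 1 and 122, 114, 101, 142 and 98.8 at day 3. Other genes of the list that stayed above untreated were the RNA sensor Dhx58 and the antiviral genes Mx2, Oas2, Oas3, Rsad2 and Bst2. Another was Irf9, a subunit of the complex that binds the response element. The kinase Eif2ak2, the signalling factor Stat2, the viral RNA sensors Ddx58 and Ifih1 and most guanylate-binding proteins tested (Gbp3, Gbp4 and Gbp7, with Gbp2 partial) were among the returned genes. Ifi27 went the other way, with means of 563 CPM in untreated libraries, 143 at day 1 and 733 at day 3 (log2 change 2.35 ± 0.19, edgeR adjusted p = 9.5e-09). Irf1 had means of 571 and 542 CPM at day 1 and day 3 with no call.

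**Figure D2:**
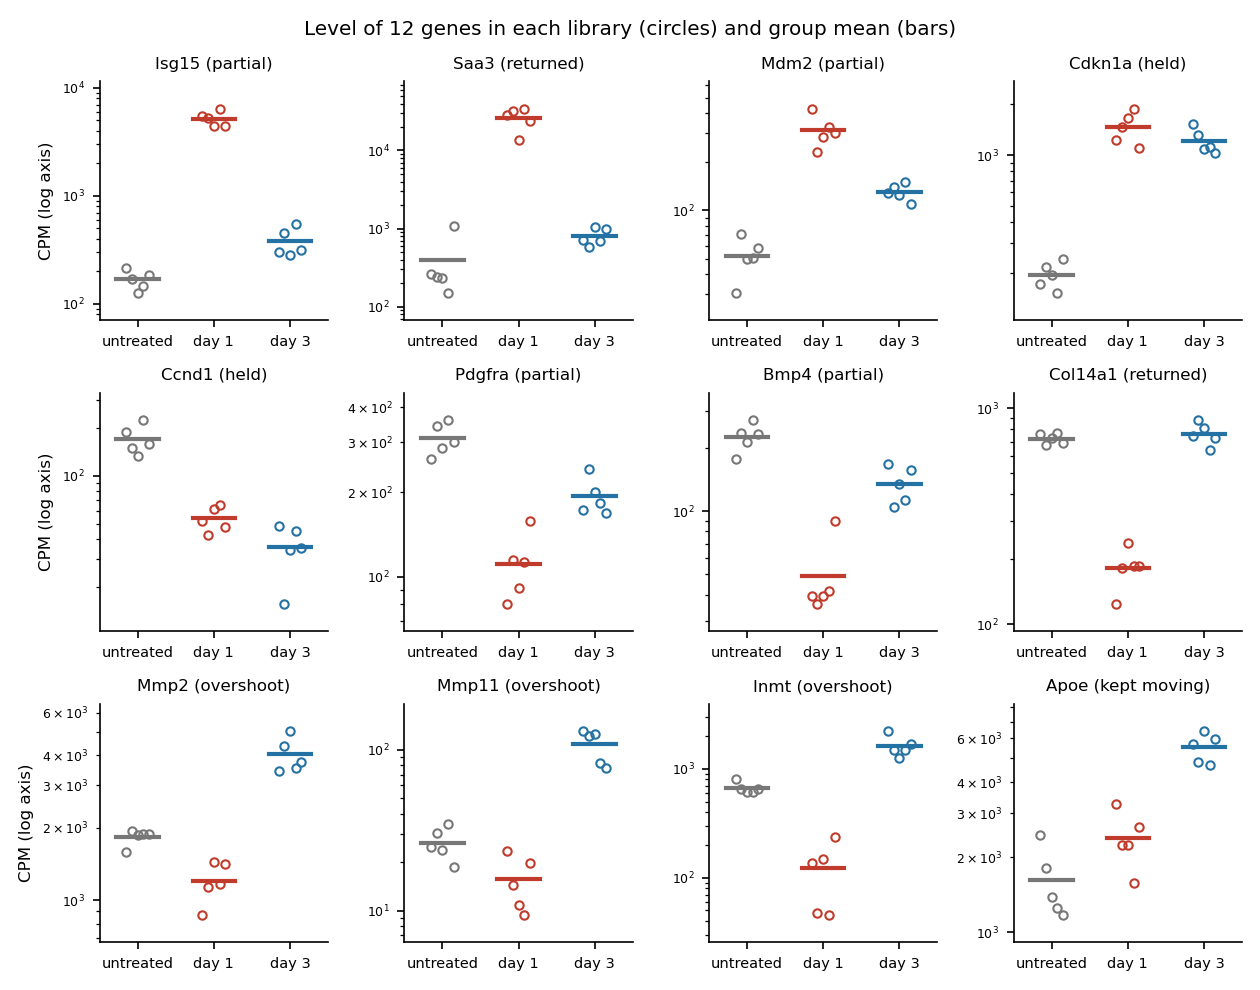
CPM of 12 genes on a log axis in each of the 15 libraries (circles), with group means (bars) and the course of the gene in brackets. Isg15 and Mdm2 stopped between day 1 and untreated, the day 3 values of Cdkn1a overlapped with those of day 1, and Mmp2, Mmp11 and Inmt passed above every untreated library.

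Antigen presentation by MHC class I moved apart within 1 pathway. Of 22 tested genes, 12 fell and 1 rose, against 16.6% and 16.1% of all genes, with a median log2 change of -0.77. Among genes that make and load peptides, Psmb9, Psmb10, Psme1, Psme2, Tap2 and Tapbp fell, while Tapbpl, Erap1, Pdia3 and Canx were not called. Psmb8, a subunit of the immunoproteasome, was at 238, 161, 179, 164 and 156 CPM untreated, 1041, 1008, 775, 1083 and 879.9 at day 1 and 278, 223, 294, 301 and 276 at day 3. Day 3 lay below every day 1 value and overlapped with the highest untreated one (log2 change -1.80 ± 0.15, edgeR adjusted p = 1.4e-08). It was still called above untreated. Tap1, the peptide transporter, and Nlrc5, the transactivator of class I genes, changed by -1.55 ± 0.13 and -2.26 ± 0.18 on the log2 scale, and both stayed above every untreated value at day 3. The chains that are loaded took different courses. H2-T22 fell, with means of 4.34 CPM in untreated libraries, 10.5 at day 1 and 3.33 at day 3 (log2 change -1.57 ± 0.28, edgeR adjusted p = 0.00017). H2-D1 rose again after day 1, with means of 1903 CPM in untreated libraries, 3873 at day 1 and 5798 at day 3 (log2 change 0.58 ± 0.16, edgeR adjusted p = 0.0062). H2-K1 was held, with means of 1185 CPM in untreated libraries, 3707 at day 1 and 4201 at day 3, while the shared partner chain B2m fell from 6132 to 4046 CPM (adjusted p = 0.029, edgeR). H2-D1, H2-K1 and the other class I chains are near-identical copies, and how their shared reads were assigned was not given in the sources used here.

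The RNA of inflammatory genes fell after day 1 in most but not all cases. Of 40 tested cytokine, chemokine and acute-phase genes, 24 fell and 2 rose, against 16.6% and 16.1% of all genes. The list's median log2 change was -1.01, and 16 of its genes were still called above untreated at day 3. Saa3, an acute-phase lipid carrier, was at 263, 241, 236, 150.1 and 1077 CPM untreated, 28743, 31782, 13732, 33942 and 23610.2 at day 1 and 716, 583, 1043, 694 and 991 at day 3. Day 3 lay below every day 1 library and overlapped with the highest untreated one. The fall was -5.03 ± 0.53 on the log2 scale (edgeR adjusted p = 6.5e-06). Lcn2, a protein that withholds iron from bacteria, fell too (-4.15 ± 0.51, adjusted p = 3.1e-05, edgeR), from 5715, 8192, 2484, 7694 and 3823 CPM at day 1 to 274, 223, 375, 286 and 418 at day 3, with every day 3 value above every untreated value of 46.8, 44.4, 34.2, 33.9 and 183. Il6, Ccl2, Ccl7 and Lif were among the 14 returned genes. Means of Il6 were 364 CPM in untreated libraries, 1135 at day 1 and 295 at day 3. Cxcl9 and Cxcl10, chemokines for activated T cells, Csf3, Il11 and Hp were partial. Cxcl10 had means of 386 CPM in untreated libraries, 4418 at day 1 and 1279 at day 3 (log2 change -1.79 ± 0.22).

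Some genes of the inflammatory list were not called as falls. Cxcl12, the chemokine that holds CXCR4-bearing progenitors in the tissue, was at 208, 232, 193, 169 and 181 CPM untreated, 148, 651, 349, 673 and 554 at day 1 and 429, 435, 427, 384 and 439 at day 3. Its day 1 values scattered on both sides of day 3, and day 3 lay above every untreated value. The log2 change after day 1 was -0.18 ± 0.26 (edgeR adjusted p = 0.64); without day 1 replicate 1, the lowest library, it was -0.41 (adjusted p = 0.0486). Among other genes of the list, Cxcl5, Ptx3, Socs3, Nfkb1 and Relb were also held, which does not show that they stayed level. Ptx3 had means of 1167 CPM at day 1 and 735 at day 3 (log2 change -0.67 ± 0.33), and Nfkb1 191 and 224. The neutrophil chemokine Cxcl5 had means of 95.3 CPM in untreated libraries, 577 at day 1 and 390.2 at day 3 (log2 change -0.57 ± 0.40). Cx3cl1, a membrane-bound chemokine for monocytes, overshot, from 25.2, 16.1, 31.9, 24.2 and 27.6 CPM at day 1 to 80.4, 93.1, 147, 87.5 and 87.1 at day 3 against 66.3, 40.00, 34.2, 58.8 and 36.2 in untreated libraries (log2 change 1.98 ± 0.23, edgeR adjusted p = 7.8e-07).

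Several complement genes stayed high or rose. Of 15 tested genes, 6 rose (3 without day 1 replicate 4) and 1 fell after day 1, against 16.1% and 16.6% of all genes. The median log2 difference from untreated was 0.61 at day 1 and 0.81 at day 3, and 10 were called above untreated and 2 below at day 3. C1s1, a protease of the C1 complex, was at 1104, 1425, 1363, 1272 and 1385 CPM untreated, 868, 1240.0, 1287, 1129 and 1037 at day 1 and 1978, 1948, 1762, 1782 and 1853 at day 3. Only at day 3 did it lie outside the untreated range in every library. It rose by 0.74 ± 0.14 on the log2 scale (edgeR adjusted p = 0.00026). C1ra, the other protease of the complex, kept moving upward with means of 809 CPM in untreated libraries, 1043 at day 1 and 1415 at day 3 (adjusted p = 0.021, edgeR). The central components C2, C3, C4a and C4b were held. C4b had means of 193 CPM in untreated libraries, 973 at day 1 and 1233 at day 3. C4a and C4b are close copies, so their reads cannot be fully told apart. Cfb, the factor B of the alternative pathway, was the 1 that fell, from 5334, 5725, 4088, 4312 and 3724 to 2830.2, 2158, 3418, 2332 and 3097 CPM. It stayed above the untreated values of 601, 689.7, 665, 753 and 698 (log2 change -0.74 ± 0.16, edgeR adjusted p = 0.0011).

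The p53 response came down in part. Of 47 tested targets, 17 fell and 6 rose after day 1, against 16.6% and 16.1% of all genes. The list's median log2 change was -0.35. At day 3, 24 were still called above untreated and 0 below, and the median difference from untreated was 0.69 at day 3 after 1.15 at day 1. Mdm2, the ubiquitin ligase that degrades p53, was at 30.6, 70.7, 49.6, 50.7 and 58.3 CPM untreated, 425, 229, 285, 329.5 and 304 at day 1 and 127, 139.8, 124, 149 and 109 at day 3. The 3 groups did not overlap (log2 change after day 1 -1.27 ± 0.18, edgeR adjusted p = 1.6e-05). Cdkn1a (p21), the inhibitor that arrests the cell cycle, was at 171, 215, 194, 151 and 240.0 CPM untreated, 1227, 1472, 1659.6, 1877 and 1097 at day 1 and 1534, 1310.5, 1079, 1123 and 1029 at day 3. Here day 1 and day 3 overlapped and both lay far above untreated, with a change after day 1 of -0.27 ± 0.17 (adjusted p = 0.23, edgeR) and a difference from untreated of 2.64 at day 3.

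The other p53 targets split along the same lines. Gdf15, a stress hormone, Psrc1, Phlda3, an inhibitor of Akt, the death effector Bax and Rps27l were partial. Gdf15 had means of 33.1 CPM in untreated libraries, 433 at day 1 and 184 at day 3 (log2 change -1.22 ± 0.27, edgeR adjusted p = 0.0019). The membrane protein Perp and the death receptors Tnfrsf10b and Eda2r were held, with Perp at means of 2.02 CPM in untreated libraries, 18.5 at day 1 and 21.2 at day 3. Lif was returned, at 179.5, 72.4, 133, 150.4 and 41.3 CPM at day 1 and 10.2, 28.6, 19.7, 18.9 and 14.1 at day 3. Zmat3, an RNA-binding p53 target, was a late riser, with means of 14.9 CPM in untreated libraries, 14.8 at day 1 and 28.5 at day 3 (log2 change 1.04 ± 0.22, edgeR adjusted p = 0.00079). Abhd4 and Sulf2 were late risers as well.

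Few cell-cycle genes were called after day 1. Of 30 tested genes of the cycle and of DNA replication, 0 rose and 4 fell in edgeR's test (7 without day 1 replicate 2), against 16.6% of all genes, with a median log2 change of -0.28, and 11 were called below untreated at day 3. At day 1, 9 had been called lower and 4 higher. Ccnd1 (cyclin D1), which starts the cycle, was at 189, 149, 132, 223 and 157 CPM untreated, 52, 42.3, 61.8, 65.8 and 47.9 at day 1 and 48.1, 15.7, 34.3, 45.1 and 35.3 at day 3. Both later groups lay below every untreated value and overlapped with each other (log2 change after day 1 -0.60 ± 0.23, edgeR adjusted p = 0.052; DESeq2 and 7 other settings put it past the threshold as a fall). Top2a, the topoisomerase of dividing cells, kept falling, at 3.4, 8.48, 14.7, 8.4 and 10.2 CPM untreated, 4.72, 3.49, 2.83, 7.92 and 5.25 at day 1 and 1.55, 1.35, 1.51, 1.11 and 0.686 at day 3 (log2 change -1.90 ± 0.43, adjusted p = 0.0018, edgeR). Mki67, the proliferation marker, went from 1.57, 0, 2.42, 1.98 and 1.31 CPM at day 1 to 0.31, 1.62, 0.505, 0.279 and 0.343 at day 3 with no call (adjusted p = 0.2, edgeR). It stayed below the untreated values of 6.81, 6.06, 8.63, 10.7 and 6.38. Mcm5, a subunit of the replicative helicase, fell late, from 6.3, 13.5, 9.28, 13.9 and 6.56 to 4.35, 4.05, 1.51, 2.51 and 4.46 CPM. Of 30 tested DNA repair genes, 5 fell (3 without day 3 replicate 4) and 1 rose, a share of falls near the 16.6% of all genes. Lig1, the ligase that joins replicated strands, fell from 23.6, 14.4, 12.9, 12.9 and 19 to 8.38, 9.45, 6.05, 7.8 and 6.17 CPM (log2 change -1.02 ± 0.22, edgeR adjusted p = 0.0011).

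**Figure D3:**
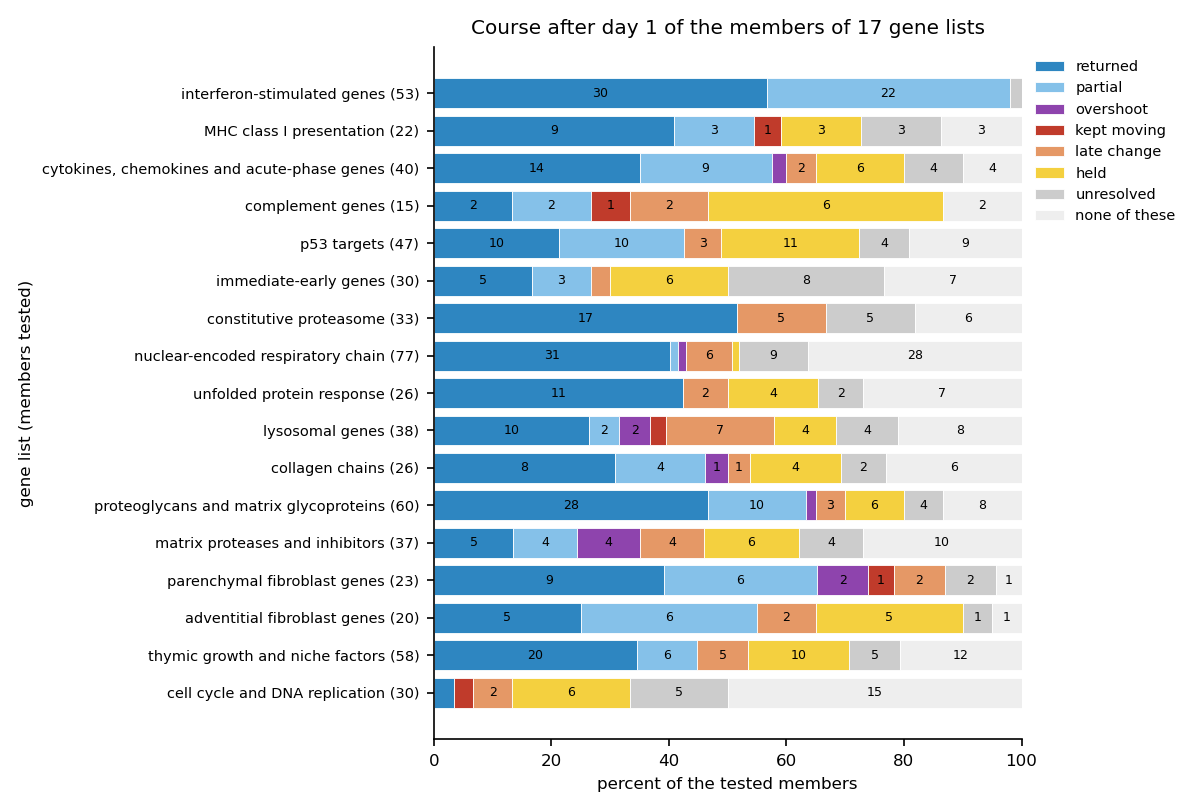
Course after day 1 of the tested members of 17 gene lists, as percent of the list, with the number of genes printed in the larger segments. The interferon list was nearly all returned (30) or partial (22), the complement (6) and p53 (11) lists had many held members, and the cell-cycle list had 1 returned gene.

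Genes of protein degradation and energy metabolism mostly fell or were not called. Of 33 tested genes of the constitutive proteasome, 22 fell and 0 rose, and at day 3, 0 were called above untreated and 4 below; 28 fell without day 1 replicate 1 and 15 with total-count scaling. The letters TGACNNNGC on either strand, the core of the antioxidant response element bound by NRF1 and NRF2, was in the same window of 2 of the 17 falling proteasome genes with an entry (11.8%), against 14.1% of tested genes. Psmb6, a catalytic subunit, was at 237, 202, 204, 219 and 220.0 CPM untreated, 499, 401, 392, 482 and 451 at day 1 and 217, 191, 227, 209 and 234 at day 3. Day 3 overlapped with untreated and lay wholly below day 1 (log2 change -1.04 ± 0.13, edgeR adjusted p = 1.7e-06). Among 77 nuclear-encoded genes of the respiratory chain, 37 fell and 2 rose. Atp5g1, a subunit of the ATP synthase rotor, was at 149.7, 128, 123, 113 and 129 CPM untreated, 346, 262, 259, 334 and 289 at day 1 and 143, 152, 107, 121 and 128 at day 3 (log2 change -1.19 ± 0.14, adjusted p = 1.3e-06, edgeR). Its day 3 and untreated values overlapped and its day 1 values stood apart. Cox7a2l, which helps to join respiratory complexes into supercomplexes, ran against the list and overshot, at 260.3, 286, 303, 247 and 227 CPM untreated, 128, 208, 222, 170.2 and 199 at day 1 and 419, 466, 444, 424 and 439 at day 3 (log2 change 1.23 ± 0.15, edgeR adjusted p = 1.5e-06). Of 63 mitochondrial ribosomal proteins, 20 fell and 1 rose, and 19 of the 63 were returned genes. The 71 cytosolic ribosomal proteins were mostly not called, with 7 rising and 6 falling, shares below the background of 16.1% and 16.6%, and 14 rising with total-count scaling or 11 without day 1 replicate 5.

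Stress genes differed by family. Over all genes, 16.6% fell and 16.1% rose. Of 22 heat-shock chaperones, 12 fell and 0 rose. Hspa1a, the inducible Hsp70, was at 4586, 1929, 2825, 2905 and 3589 CPM untreated, 12532, 4775, 5332, 5040.4 and 4448 at day 1 and 2477, 1864, 2599.7, 2684 and 2255 at day 3, with day 3 below every day 1 value and overlapping with untreated (log2 change -1.43 ± 0.27, edgeR adjusted p = 0.00036). Of 26 genes of the unfolded protein response, 11 fell and 2 rose, and 11 were returned. Calr, a calcium-binding chaperone of the endoplasmic reticulum, fell from 2376, 1899, 1906, 2262 and 1697 CPM to 878, 759.6, 1049.9, 801 and 872, beside 797, 840.0, 946, 878 and 949 in untreated libraries (log2 change -1.22 ± 0.14, adjusted p = 9.2e-07, edgeR). The stress transcription factors Atf4 and Ddit3, on the same list, were held. Ddit3 had means of 111 CPM in untreated libraries, 247 at day 1 and 177 at day 3. Immediate-early genes fell in 9 of 30 cases and rose in 0. Ier3, an early regulator of survival, fell from 3194, 2294, 2765, 3294 and 1516 to 970.2, 1144, 933, 1249.7 and 1181 CPM against 777, 694, 806, 443 and 989.5 in untreated libraries. Egr1, Junb and Myc were held. Of 25 NRF2 and antioxidant genes, 3 rose and 3 fell, shares below those of all genes. Held members, 8 in all, included Hmox1, which breaks down heme, with means of 178 CPM in untreated libraries, 630.0 at day 1 and 581 at day 3, and the metallothioneins Mt1 and Mt2. Txn1 (thioredoxin) did fall, from 1534, 1114, 898, 1159.8 and 1356 to 683, 816, 564, 620.1 and 595 CPM (log2 change -0.88 ± 0.16, edgeR adjusted p = 0.00023).

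Lysosomal genes moved upward. Of 38 tested, 19 rose and 3 fell after day 1, against 16.1% and 16.6% of all genes. The list's median log2 change was 0.52, and 9 of its genes were called above untreated at day 3 against 1 below. The lysosomal protease Ctsf was at 108, 99, 97.1, 101 and 111 CPM untreated, 36.2, 41.4, 55.3, 44.5 and 57.1 at day 1 and 137, 177, 174, 126 and 126 at day 3. All day 3 values lay above all values of both other groups (log2 change 1.64 ± 0.15, edgeR adjusted p = 6.5e-08). Hexa, a subunit of the hexosaminidase that degrades gangliosides, also overshot, at 221, 289, 273, 290.2 and 267 CPM untreated, 191, 177, 167, 159 and 165 at day 1 and 452, 417, 644, 387 and 429 at day 3 (1.44 ± 0.15, adjusted p = 2.2e-07, edgeR). Lipa, the acid lipase, returned (34.6, 34.9, 27.8, 33.2 and 39.4 to 100.2, 102, 82.7, 81.3 and 95 CPM). Lamp1, Ctsb and Tpp1 were among 7 late-change members.

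**Figure D4:**
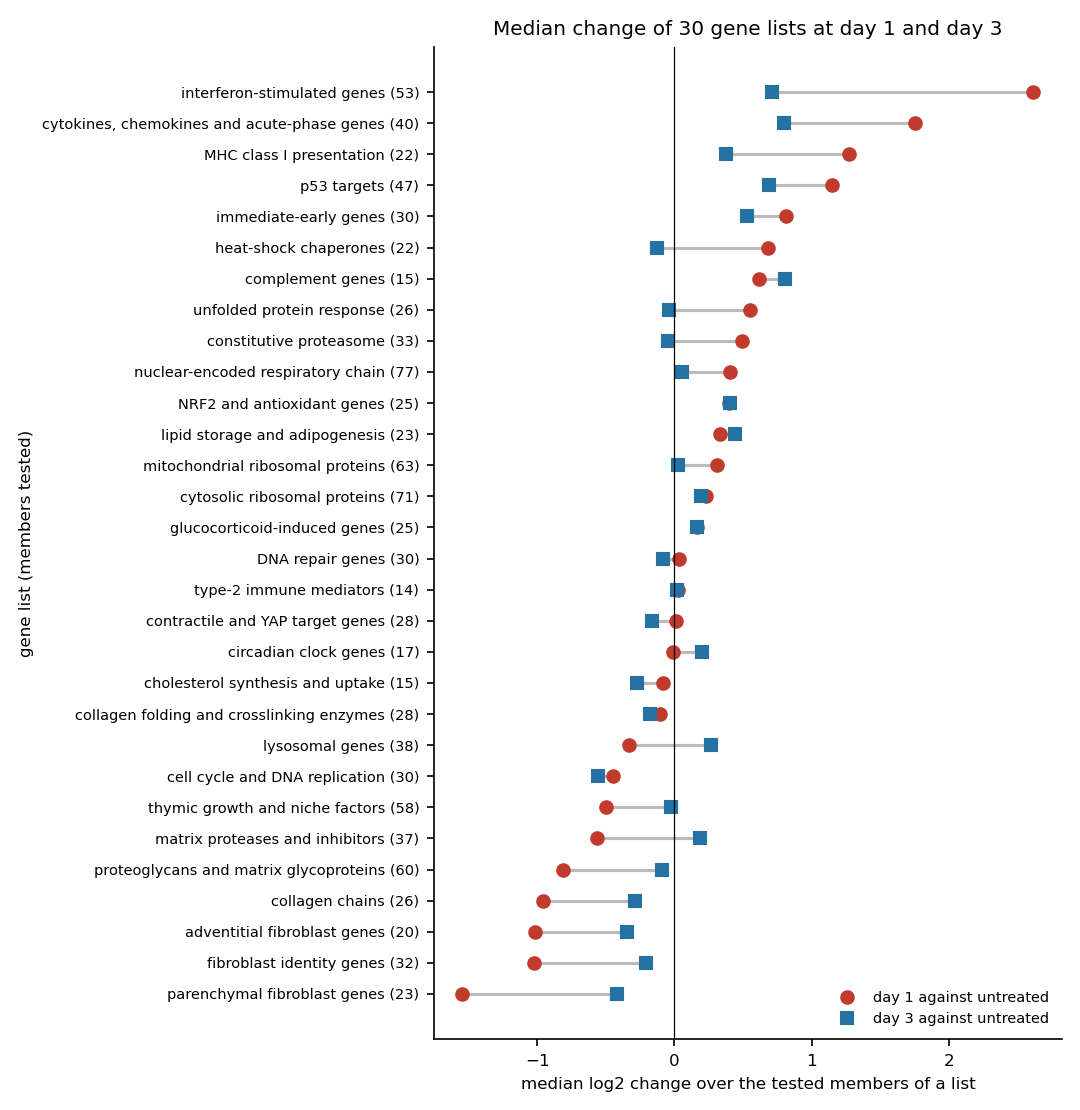
Median log2 change against untreated over the tested members of 30 gene lists, at day 1 (red circles) and day 3 (blue squares). Of the 30 lists, 20 lay nearer to 0 at day 3, while complement moved away from 0 (0.61 to 0.81) and lysosomal genes went from -0.33 to 0.27.

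The matrix programme, which was down at day 1, rose again but not evenly. Of 26 tested collagen chains, 14 rose and 0 fell, against 16.1% and 16.6% of all genes. The list's median log2 change was 0.59 after -0.96 at day 1, and 7 chains were still called below untreated. Col14a1, a collagen that organises fibrils, was at 760.5, 677, 729.9, 766 and 691 CPM untreated, 124, 182, 237, 186 and 186 at day 1 and 743, 883, 810.2, 644 and 731 at day 3, with day 3 around the untreated range and clear of day 1 (log2 change 2.05 ± 0.15, edgeR adjusted p = 3.8e-09). Col3a1, a major fibril collagen, was at 13598, 11799, 10923, 13732 and 10978 CPM untreated, 2491, 6582, 7347, 6631 and 5908 at day 1 and 11332, 16144, 11299.9, 13616 and 13252 at day 3 (1.18 ± 0.21, adjusted p = 0.00021, edgeR). The other major fibril collagen, Col1a1, was at 1028, 1559, 1486, 1527 and 1179 CPM untreated, 461, 969, 717, 1075 and 1552 at day 1 and 632, 724, 993, 939 and 972 at day 3, overlapping between day 1 and day 3 and not called (-0.17 ± 0.23, edgeR adjusted p = 0.62; 0.07 without day 1 replicate 5). Col1a2, the partner chain of Col1a1, was unresolved, with means of 9431 CPM in untreated libraries, 5708 at day 1 and 7661 at day 3. Its log2 change after day 1 was 0.42 ± 0.19 (edgeR adjusted p = 0.092). Col8a1 was partial, with means of 133 CPM in untreated libraries, 16.2 at day 1 and 26.7 at day 3. Chains held low were Col5a1, Col5a2 and Col12a1, and Col18a1 was held above untreated, with means of 184 CPM in untreated libraries, 334 at day 1 and 408 at day 3.

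Collagen-modifying enzymes went both ways, 7 up and 9 down of 28, against 16.1% and 16.6% of all genes. Plod3, a lysyl hydroxylase of the endoplasmic reticulum, fell from 351, 252, 259, 292 and 243 to 129.7, 142, 149, 129.8 and 115 CPM, while Adamts2, which trims procollagen, rose from 66.1, 66.3, 94, 61.4 and 87.3 to 196, 273, 214, 223 and 192. Both overlapped with their untreated ranges at day 3, and both were called after day 1 (log2 changes -1.07 ± 0.15 and 1.54 ± 0.18, edgeR adjusted p = 8.2e-06 and 9.1e-07). Pcolce2, an enhancer of procollagen cleavage, rose in part, with means of 516 CPM in untreated libraries, 114 at day 1 and 307 at day 3. Of 60 proteoglycans and matrix glycoproteins, 34 rose and 8 fell, and 28 were returned. Sparcl1, an anti-adhesive glycoprotein, rose from 224, 196, 251, 255 and 434 to 1088, 1352, 1183, 1199.8 and 1055 CPM, beside 1109, 1221, 1090.3, 1524 and 1331 untreated (2.11 ± 0.19, edgeR adjusted p = 2.6e-08). Eln (elastin) had means of 2086 CPM in untreated libraries, 703 at day 1 and 2062 at day 3. Tnc (tenascin C), a glycoprotein of wounds, went the other way, at 5.1, 6.46, 5.04, 6.38 and 5.96 CPM untreated, 31.5, 23.1, 33.5, 60.4 and 91.9 at day 1 and 3.1, 3.78, 3.03, 1.67 and 1.03 at day 3 (-4.23 ± 0.37, adjusted p = 6.4e-08, edgeR), with every day 3 value below the lowest untreated one but no call against untreated (adjusted p = 0.073). Ogn, a small proteoglycan, stayed low, with means of 810.3 CPM in untreated libraries, 204 at day 1 and 277 at day 3.

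Several matrix-degrading enzymes passed their untreated level. Of 37 tested proteases and inhibitors, 14 rose (18 without day 1 replicate 1) and 3 fell, against 16.1% and 16.6% of all genes. In the list, 4 genes overshot upward: Mmp2, Mmp11, the collagen-cleaving cathepsin Ctsk and the serine protease Htra1. Mmp2 (gelatinase A) was at 1588, 1945, 1859, 1893 and 1886 CPM untreated, 871, 1131, 1444, 1169.7 and 1409 at day 1 and 3448, 4355, 5044, 3557 and 3762 at day 3. The 3 groups did not overlap, with day 1 lowest and day 3 highest (log2 change 1.74 ± 0.16, edgeR adjusted p = 4.8e-08; difference from untreated 1.14, adjusted p = 4.3e-05). Mmp11 (stromelysin 3) was at 24.7, 30.3, 23.7, 34.6 and 18.7 CPM untreated, 23.6, 14.4, 10.9, 9.4 and 19.7 at day 1 and 131, 122, 126, 83.3 and 77.5 at day 3, and again every day 3 value lay above every other (2.90 ± 0.24, edgeR adjusted p = 8.8e-09). Mmp14, the membrane protease that activates pro-Mmp2, was a late riser, with means of 301 CPM in untreated libraries, 275 at day 1 and 709 at day 3 (log2 change 1.37 ± 0.14, edgeR adjusted p = 2.5e-07). Adam12 rose late too. The inhibitors moved in opposite directions: Timp2 rose from 800.0, 646, 1030.4, 498 and 681 to 3173, 2568, 2835, 2163 and 2495 CPM, beside 2680.3, 2887, 3334, 2712 and 2704 untreated. Timp1 fell from 2603, 4247, 2395, 6004 and 3391 to 362, 327, 393, 448 and 382 and stayed above the untreated values of 87.6, 169, 182, 121 and 292. Timp3, bound to the matrix, was held low, with means of 252 CPM in untreated libraries, 85.8 at day 1 and 120.5 at day 3.

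Contractile and YAP target genes tended down, with 11 of 28 falling and 3 rising, against 16.6% and 16.1% of all genes. With total-count scaling 7 fell. Ccn1, a matricellular target of YAP, was at 920.4, 528, 751, 667 and 1073 CPM untreated, 1786, 956, 1290.3, 1550.2 and 835 at day 1 and 349, 366, 564, 487 and 465 at day 3, with day 3 below every day 1 value and in part below untreated (log2 change -1.52 ± 0.22, edgeR adjusted p = 1.5e-05; difference from untreated -0.82, adjusted p = 0.011). Des (desmin) fell late, from 501, 241, 259.9, 217 and 284 to 99, 98.5, 138, 110.3 and 89.5 CPM, below every untreated value of 296, 173, 161, 252 and 146. The growth factor Tgfb2, which induces the contractile state, rose from 52, 17, 21.4, 30.7 and 31.5 to 80.4, 109, 142, 71.6 and 95.7 CPM (1.81 ± 0.24, adjusted p = 6e-06, edgeR).

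Genes that define the fibroblasts themselves were regained, in part. Of 32 tested identity genes, 17 rose and 3 fell, against 16.1% and 16.6% of all genes, with a median log2 change of 0.65. Pdgfra, the receptor used for the sort, was at 263, 343, 286, 359.7 and 300.1 CPM untreated, 80.3, 115, 91.2, 113 and 158 at day 1 and 173, 242, 199, 184 and 169 at day 3, in 3 groups that did not overlap (0.79 ± 0.17, edgeR adjusted p = 0.0011). Cd34, also part of the gate, was at 1508, 1572, 1600.4, 1474 and 1700.3 CPM untreated, 335, 625, 641, 440.4 and 573 at day 1 and 1104, 1059, 922, 1169 and 1168 at day 3, in the same order and without overlap (1.05 ± 0.16, edgeR adjusted p = 3.4e-05). Gsn (gelsolin), which severs actin filaments, returned from 3724, 3164, 4541, 2522 and 4119 to 11602, 12068, 13932, 10151 and 13248 CPM. The surface protein Ly6a (Sca-1), an interferon-inducible gene, fell from 6003, 15204, 7171, 11159 and 9352 to 2798, 3005, 2758, 2770.1 and 2452 CPM, beside 1940.3, 2448, 3075, 2553 and 2883 in untreated libraries (-1.83 ± 0.21, adjusted p = 6.7e-07, edgeR).

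Genes typical of parenchymal fibroblasts, those inside the tissue, rose in 20 of 23 cases and fell in 0, against 16.1% and 16.6% of all genes. The count was also 20 with total-count scaling and without day 1 replicate 1. The list's median log2 change was 1.07 after -1.54 at day 1. Inmt, a methyltransferase for small amines, was at 812, 656, 619.8, 609 and 649 CPM untreated, 137, 47.1, 149, 45.5 and 236 at day 1 and 2228, 1489, 1252, 1488 and 1684 at day 3. It passed above every untreated library, with a change of 3.74 ± 0.38 on the log2 scale after day 1 (edgeR adjusted p = 2e-06) and a difference from untreated of 1.28 at day 3 (adjusted p = 0.017). Smoc2, a matricellular protein, was partial, at 1204, 1690.5, 1189.6, 1328 and 1604 CPM untreated, 214, 131, 239.7, 152 and 269 at day 1 and 734, 923, 685, 688 and 818 at day 3 (1.94 ± 0.19, edgeR adjusted p = 9.7e-08). Itgbl1, Aspn, Spon1 and Lpl were partial as well, and Penk, Enpp2 and Ptn returned.

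Adventitial genes, typical of fibroblasts around vessels and in the capsule, rose in 11 of 20 cases and fell in 2. Over all genes, 16.1% rose and 16.6% fell. The list's median log2 change was 0.75. Scara5, a ferritin receptor, returned, at 1168, 1629.8, 1470.2, 1283 and 1249.6 CPM untreated, 213, 235, 226, 157 and 392 at day 1 and 1346, 1169.9, 954, 1087 and 1106 at day 3 (2.21 ± 0.20, edgeR adjusted p = 2.6e-08). Efhd1, a mitochondrial calcium-binding protein, was partial, at 267, 218, 319, 159 and 201 CPM untreated, 15.7, 26.6, 46, 24.7 and 33.5 at day 1 and 121, 82.6, 90.8, 85.5 and 132 at day 3, in 3 groups that did not overlap (1.74 ± 0.23, edgeR adjusted p = 6e-06). Pi16 and Dpp4, markers of universal fibroblasts, were partial too, and Pi16 had means of 5064 CPM in untreated libraries, 1585 at day 1 and 2791 at day 3. Mfap5, Cd55 and Anxa3 were held low, and Has1 and Tnfaip6 were held high. Whether the parenchymal and adventitial lists differed in their change was not tested.

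Growth and niche factors for the thymic epithelium and for progenitors rose in 26 of 58 cases and fell in 5. Over all genes, 16.1% rose and 16.6% fell. The list's median log2 change was 0.44. Bmp4, which maintains the epithelial programme, was at 176, 234, 214, 271 and 234 CPM untreated, 39.4, 36.2, 39.6, 41.6 and 89.2 at day 1 and 167, 105, 135, 113 and 156 at day 3. Day 3 lay above every day 1 value and below every untreated one (1.46 ± 0.22, edgeR adjusted p = 2.6e-05; difference from untreated -0.74, adjusted p = 0.014). Igf1, a growth factor for epithelium and thymocytes, returned, at 166, 247, 174, 168 and 154 CPM untreated, 36.2, 47.1, 62.2, 36.1 and 58.4 at day 1 and 128, 217, 141, 181 and 174 at day 3 (1.79 ± 0.19, edgeR adjusted p = 3.3e-07). Its binding protein Igfbp3 had means of 479 CPM in untreated libraries, 81.8 at day 1 and 601 at day 3. Fgf7 (keratinocyte growth factor) was at 52.7, 43.6, 36.7, 47.7 and 48.5 CPM untreated, 7.87, 27, 27, 35.1 and 36.7 at day 1 and 42.2, 51.6, 40.9, 45.4 and 48.7 at day 3, with day 3 above day 1 and overlapping with untreated (0.69 ± 0.20, edgeR adjusted p = 0.011). Its relative Fgf10 had means of 76.7 CPM in untreated libraries, 21.4 at day 1 and 62.8 at day 3. The secreted Wnt antagonist Sfrp1 rose from 102, 55, 69.8, 89.1 and 72.8 to 283, 316, 307, 269 and 264 CPM, beside 174, 375, 290.3, 435 and 349 untreated (1.91 ± 0.20, edgeR adjusted p = 3.3e-07).

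Other ligands took different courses. Rspo3, an amplifier of Wnt signals, and Sfrp2 were late risers, with means for Rspo3 of 12.5 CPM in untreated libraries, 13.4 at day 1 and 25.8 at day 3. Inhba, the subunit of activin A, fell late, with means of 5.36 CPM in untreated libraries, 7.25 at day 1 and 1.15 at day 3 (log2 change -2.66 ± 0.42, edgeR adjusted p = 4.7e-05). Gas6, a ligand that promotes uptake of dead cells through TAM receptors, was held high, with means of 304 CPM in untreated libraries, 1259.8 at day 1 and 1212 at day 3, as were Vegfa, Hbegf and Tgfa. Kitl (stem cell factor) and Angpt1 were held low, and Kitl had means of 25.3 CPM in untreated libraries, 14.5 at day 1 and 12.5 at day 3. Flt3l, a growth factor for early progenitors and dendritic cells, returned, with means of 126 CPM in untreated libraries, 62.2 at day 1 and 94.8 at day 3.

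The series title names a type-2 immune response, whose alarmins fibroblasts can make. Of 14 tested type-2 mediators, 6 fell and 0 rose, against 16.6% and 16.1% of all genes. The alarmins were not among the called genes. Il33 was at 462, 391, 422, 346 and 462 CPM untreated, 189, 482, 433, 521 and 477 at day 1 and 453, 429, 388, 515 and 445 at day 3, values that overlapped throughout (0.08 ± 0.19, edgeR adjusted p = 0.79; -0.11 without day 1 replicate 1, the lowest library). Tslp was at 7.87, 6.11, 8.48, 5.94 and 15.1 CPM at day 1 and 6.52, 8.37, 5.05, 8.36 and 5.14 at day 3 (-0.32 ± 0.28, edgeR adjusted p = 0.4). Ccl11 (eotaxin) was at 627, 936, 642, 922 and 1481 CPM at day 1 and 1004, 1037, 1047, 998 and 1082 at day 3 (0.16 ± 0.19, edgeR adjusted p = 0.54). A missed threshold does not show that these genes were unchanged. Receptors for both alarmins fell. Crlf2, the Tslp receptor chain, went from 101, 124, 123, 98 and 108 to 55.6, 63.2, 54.5, 65.7 and 64.8 CPM (-0.87 ± 0.13, edgeR adjusted p = 3.1e-05). Il1rl1, the Il33 receptor, fell from 3.15, 6.11, 6.86, 10.4 and 4.59 to 1.24, 3.24, 3.03, 1.95 and 3.09 CPM, with overlap. Socs1, an inhibitor of cytokine receptors, was partial, at 469, 185, 249, 313 and 354 CPM at day 1 and 117, 130.4, 176, 178 and 195 at day 3 against 80.8, 60.6, 46, 66.8 and 67.7 untreated.

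Lipid, hormone and clock genes went both ways. Over all genes, 16.1% rose and 16.6% fell. Of 23 lipid genes, 7 rose and 3 fell. Apoe, which carries cholesterol out of cells, kept moving upward, at 2457, 1816, 1381, 1249 and 1174 CPM untreated, 3269, 2237, 2245, 1578 and 2639 at day 1 and 5689, 4803, 6419, 4688 and 5979.8 at day 3. Every day 3 value lay above every other (1.21 ± 0.21, edgeR adjusted p = 0.00013), while day 1 and untreated overlapped. Apod, another lipid carrier, kept moving too, with means of 959 CPM in untreated libraries, 1399.8 at day 1 and 2239.9 at day 3, and the desaturases Scd1 and Scd2 returned. Of 15 cholesterol synthesis genes, 1 fell (2 without day 3 replicate 2) and 0 rose by edgeR, shares below those of all genes. Of 25 glucocorticoid-induced genes, 7 rose and 7 fell. The cell-cycle inhibitor Cdkn1c was partial, at 297, 257, 277, 249 and 273 CPM untreated, 56.7, 65.4, 106, 65.8 and 45.9 at day 1 and 173, 166, 131, 156 and 152 at day 3 (1.18 ± 0.17, adjusted p = 2.2e-05, edgeR). Of 17 clock genes, 3 fell and 3 rose, shares near those of all genes. Without day 1 replicate 2 or 4 or day 3 replicate 1 or 5, 1 riser was left. Nfil3, a repressor of the clock output, fell from 70.9, 64.1, 72.2, 116 and 66.9 to 26.4, 33.2, 29.3, 37.3 and 30.2 CPM. Hlf, an activator of it, rose from 3.15, 3.49, 8.07, 5.44 and 1.97 to 21.4, 15.9, 11.1, 15.6 and 14.7 (log2 changes -1.32 ± 0.18 and 1.72 ± 0.29, edgeR adjusted p = 5.9e-06 and 0.00011).

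Among single genes, the largest rises with no overlap and at least 20 CPM on average were Mrgprg, Cyp2e1, Inmt, Gpc6, Ngfr, Cyp2f2, Mest and Lsamp. Mrgprg, an orphan receptor of the Mas-related family, was at 34.9, 31.1, 40.6, 103 and 78.7 CPM untreated, 11, 1.74, 2.83, 0.99 and 4.59 at day 1 and 120.4, 157, 122, 187 and 31.6 at day 3. It was nearly lost at day 1 and then regained (5.28 ± 0.65, edgeR adjusted p = 3e-05), and in 1 day 3 library it lay below most untreated ones. Cyp2e1, a cytochrome P450 that oxidises small molecules, overshot, from 3.15, 0.436, 1.21, 0 and 1.31 CPM to 31.3, 26.5, 15.1, 13.4 and 16.1 against 6.81, 8.89, 8.63, 9.74 and 17 untreated. Cyp2f2, a related enzyme, was a late riser, at 4.25, 6.46, 3.24, 6.72 and 2.98 CPM untreated, 3.15, 2.62, 1.21, 2.97 and 3.94 at day 1 and 31.3, 14.8, 30.3, 13.1 and 24.7 at day 3 (3.09 ± 0.35, edgeR adjusted p = 8.9e-07). Mest, an imprinted gene expressed in mesoderm, returned from 23.6, 9.16, 21.4, 12.4 and 23 to 115, 173, 114, 194 and 110.1 CPM, beside 87.6, 118, 96.4, 124 and 97.5 untreated. The proteoglycan Gpc6 (3.13 ± 0.27), the neurotrophin receptor Ngfr (3.13 ± 0.52) and the adhesion protein Lsamp (3.01 ± 0.32) returned as well, on the log2 scale.

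The largest falls were Gpbar1, Slfn4, Rgs1, Ear1, Ccl4, Saa3, Tyrobp and Apol6. Gpbar1, a bile acid receptor, was at 0, 0.404, 0.36, 0 and 0.426 CPM untreated, 15.7, 20.5, 31.1, 31.2 and 55.8 at day 1 and 0.621, 0.54, 0, 0 and 0 at day 3. Slfn4, a schlafen gene of myeloid cells, was at 0, 0.808, 0.36, 0.336 and 1.28, 9.45, 40.6, 31.9, 53.4 and 89.2 and 0, 0, 0.505, 1.39 and 1.03 CPM in the same order. Both were near 0 outside day 1, so the size of their fold rests on few UMIs. Apol6, an apolipoprotein L, fell from 123, 29.2, 48, 49.97 and 37.4 to 2.17, 0.54, 3.03, 3.06 and 1.71 CPM (-4.69 ± 0.44, edgeR adjusted p = 2.2e-07). Rgs1, Ear1 and Ccl4 fell to means of 0.309, 0.536 and 0.693 CPM at day 3.

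Genes that went on in the day 1 direction were few. Nppc, the C-type natriuretic peptide, was at 6.81, 4.85, 4.32, 1.01 and 2.13 CPM untreated, 11, 10.9, 10.9, 17.8 and 15.1 at day 1 and 33.5, 79.4, 43.4, 42.1 and 52.5 at day 3, rising at each step without overlap (1.92 ± 0.27, edgeR adjusted p = 1.6e-05). Chchd10, a protein of the mitochondrial intermembrane space, was at 17.9, 9.7, 8.63, 7.05 and 8.09, 31.5, 30.1, 27, 27.7 and 21 and 107, 104, 48.9, 63.5 and 63.4 CPM at the 3 times (1.51 ± 0.22, edgeR adjusted p = 2.3e-05). Plppr3, a lipid phosphatase-related membrane protein, went from 29.9, 15.7, 10.1, 14.3 and 17.1 to 47.5, 40.2, 61.5, 37.6 and 43.2 CPM. Cpxm1, a secreted carboxypeptidase-like protein picked after its values were seen, had means of 506 CPM in untreated libraries, 844 at day 1 and 1805 at day 3. Downward, Top2a, the splicing factor Srsf1 and the adaptor Grap kept falling.

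Late risers included Ramp3, a partner of the adrenomedullin receptor, at 23.8, 4.85, 4.32, 7.39 and 10.6 CPM untreated, 1.57, 4.8, 4.04, 10.4 and 8.53 at day 1 and 40.3, 57, 37.8, 47.1 and 39.4 at day 3 (2.82 ± 0.36, edgeR adjusted p = 7.5e-06). Another was Fetub, at 12.6, 6.11, 5.65, 10.9 and 9.84 and 31.7, 17.8, 42.4, 25.6 and 31.6 CPM at day 1 and day 3. Mir692-1 was called on 1 library: it was at 9.93, 12.4, 10.6, 6.69 and 1688 CPM at day 3, and without day 3 replicate 5 its log2 change was 0.65 (edgeR adjusted p = 0.141). Rn45s, the ribosomal RNA precursor, which also reads how well poly(A) RNA was separated, fell late from 238, 394, 201, 329 and 430.4 to 76.7, 82.6, 101, 95.8 and 72.7 CPM, below the untreated values of 126, 358, 239, 270.0 and 157 (-1.90 ± 0.25, edgeR adjusted p = 1.1e-05). Among overshooting genes, Nmb (neuromedin B) was at 20.4, 13.3, 14.4, 15.8 and 11.1 CPM untreated, 6.3, 4.36, 2.42, 2.97 and 7.87 at day 1 and 40.3, 33.2, 33.8, 29.5 and 39.4 at day 3 (3.01 ± 0.25, edgeR adjusted p = 1.3e-08). Adh1, Vegfb, Steap3 and Hvcn1 overshot upward as well, and Creb3l1, Gmppb, Srm and S100a11 downward, all picked after their values were seen.

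Marker genes of macrophages and dendritic cells, which the CD45- gate should leave out, fell after day 1. Of 18 tested macrophage and dendritic cell markers, 17 fell after day 1, against 16.6% of all genes, with a median log2 change of -2.94. Their summed level, over the 24 of the list in the table, was 288 to 951 CPM in untreated libraries, 1234 to 2139 at day 1 and 199 to 334 at day 3. The lowest untreated library, at 288 CPM, lay inside the day 3 range, and the next, at 343, just above it. Tyrobp, a signalling adaptor of myeloid cells, was at 24.7, 17.4, 10.8, 3.69 and 8.09 CPM untreated, 78.7, 43.6, 25.4, 81.6 and 147 at day 1 and 1.24, 2.7, 4.54, 1.67 and 3.09 at day 3 (-4.86 ± 0.58, edgeR adjusted p = 1.8e-05). C1qb, a complement subunit made by macrophages, was at 56.1, 40.4, 10.8, 3.36 and 21.3, 135, 102, 30.7, 91.5 and 97.8 and 3.1, 2.97, 3.03, 5.01 and 6.17 CPM in the same order (-4.43 ± 0.64, edgeR adjusted p = 0.00014). The class II genes H2-Aa, H2-Ab1 and H2-Eb1 and the leukocyte antigen Cd52 overshot downward as well, Lyz2 and Ctss fell late (Lyz2 missed the threshold without day 1 replicate 2, with an edgeR adjusted p of 0.0507). Of the 22 genes that overshot downward, 9 were on the macrophage, dendritic or pan-leukocyte lists. Ptprc (CD45) itself, which the gate excludes, held 35, 38 and 9 UMIs in the untreated, day 1 and day 3 groups, Itgam 7, 17 and 2, Adgre1 11, 19 and 2, Fcgr1 3, 14 and 0, and Siglech 18, 0 and 0. The part of these cells in the falls of Ccl4, Rgs1, Ear1, Slfn4 and the interferon and cytokine lists was not tested.

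**Figure D5:**
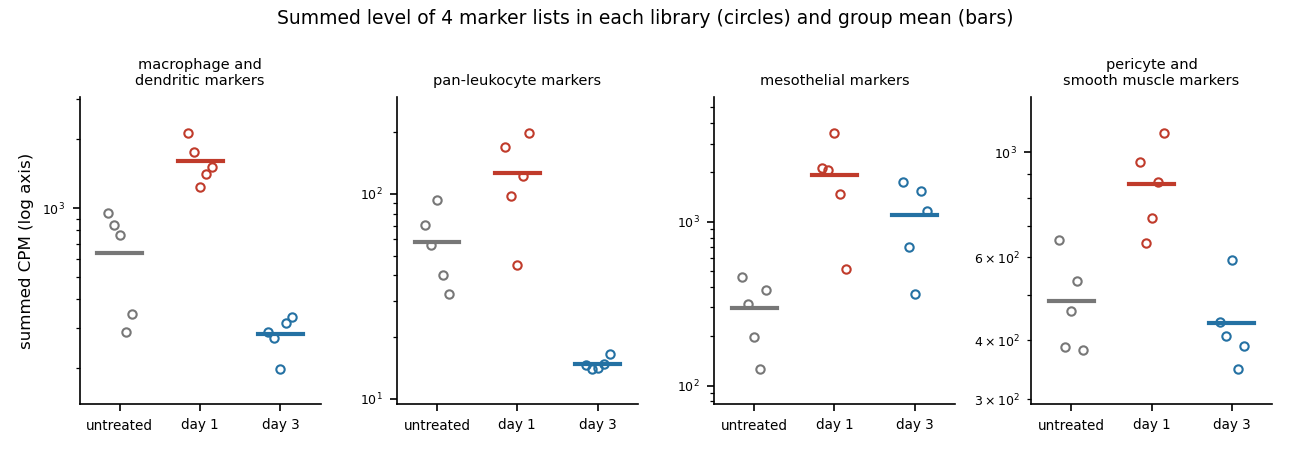
Summed CPM of the members of 4 marker lists on a log axis in each library (circles) with group means (bars). Macrophage and dendritic markers were lowest at day 3 (199 to 334 CPM), while mesothelial markers lay above every untreated library in 4 of 5 day 3 libraries.

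Mesothelial markers were not called after day 1, which does not show that they were unchanged. Their median log2 change was -0.71, and their mean summed level was 1941 CPM at day 1 and 1104 at day 3. Over all genes, 16.6% fell and 16.1% rose. Of 11 tested mesothelial markers, 0 rose and 0 fell by edgeR between day 1 and day 3, 6 were held and 5 unresolved. The summed level of these markers ran from 127 to 463 CPM in untreated libraries, 518 to 3497 at day 1 and 363 to 1752 at day 3. Msln (mesothelin), a surface glycoprotein, had means of 52.5 CPM in untreated libraries, 544 at day 1 and 311 at day 3 (log2 change -0.80 ± 0.61, edgeR adjusted p = 0.34). Pericyte and smooth muscle markers fell in 6 of 11 cases and rose in 1, with sums of 644 to 1100 CPM at day 1 and 349 to 593 at day 3. Des and Tagln, which fell on the contractile list, are members of this list too, with 2387 and 1297 UMIs at day 1. Other members had more UMIs at day 3 than at day 1, among them Abcc9 (57 and 638) and Kcnj8 (353 and 737). Thymic epithelial markers, which an EpCAM+ gate could let in, fell in 2 of 7 cases, rose in 0 and were held in 3. Their sums were 42.3 to 107 CPM untreated, 151 to 915 at day 1 and 81.2 to 349.9 at day 3. The keratins Krt19 and Krt8 are on the mesothelial list too, so both sums share them. In the untreated, day 1 and day 3 groups Krt19 held 275, 2930 and 1869 UMIs and Krt8 45, 713 and 709. Krt14 held 22, 377 and 486, while Aire held 19, 10 and 2 and Prss16 16, 2 and 22. The UMI counts in this paragraph are not scaled for depth. Library totals were 740169 to 2638344 UMIs at day 1 and 1967148 to 3750214 at day 3. An equal or higher UMI count at day 3 thus need not mean an equal or higher level. Of the granulocyte and the T cell markers, 0 passed the filter. Endothelial markers fell in 2 of 6 cases and rose in 1, and Pecam1 (CD31), which the gate excludes, held 35, 59 and 47 UMIs in the 3 groups. The summed level of 6 adipocyte markers was 12.4, 15.6, 35.3, 85.3 and 304 CPM in the day 3 libraries, and at most 59.8 CPM at day 1. The share of these cells in the matrix, contractile and lipid results was not tested.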

How the data were processed

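RNA of sorted mouse thymic fibroblasts was measured by MARS-seq in 5 untreated, 5 day 1 and 5 day 3 libraries. The authors' deposited table holds raw UMI counts per gene, normalized signal, regularized log2 values, log2 fold changes and p-values. Per the submitters' processing notes, bcl2fastq, cutadapt, STAR 2.5.2b, HTSeq and DESeq2 were used with the mm10 build. The deposited normalized signal and log2 values served only to check columns; the deposited p-values are quoted where named. How reads of near-identical genes and strands were assigned is not given in the sources used here.

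Genes were kept with filterByExpr, scaled with TMM factors and tested with edgeR 4.0.16 (R 4.3.3) by the quasi-likelihood test, robust, over all 15 libraries with 1 term per group, with Benjamini-Hochberg adjustment at 0.05. CPM values use TMM-scaled totals. Named genes were the 8 largest rises and 8 largest falls without overlap and with at least 20 CPM, up to 3 called members per list with the smallest p, up to 4 per course and direction, and 19 fixed genes. The members and lists were chosen with earlier results of these data known. Alternatives used DESeq2 1.42.0, limma 3.58.1 (voom with quality weights), RLE and total-count scaling, other filters, thinned counts, glmTreat, 2 groups only, a replicate block and each library left out. The fit was tested on simulated data. Depth was 740169 to 3750214 UMIs. Promoter windows are from RefSeq (GRCm38.p6), and Python 3.11.15 drew the figures.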

Additional observations from a re-analysis of the deposited data

Results flagged for a closer look

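In 396 groups of 5 values, 31 had 1 library far from the other 4 by Dixon's criterion, which chance meets in about 5% of groups. Values are CPM, followed by the range of the other 4 libraries.

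Among untreated libraries, replicate 5 stood high for the acute-phase genes Saa3 (1077 against 150.1 to 263) and Lcn2 (183 against 33.9 to 46.8), for Cyp2e1 (17.02 against 6.81 to 9.74) and for Cxcl11 (1.28 against 0 to 0.36). Untreated replicate 1 stood high for Inmt (812 against 609 to 656), Psmb8 (238 against 156 to 179), Chchd10 (17.9 against 7.05 to 9.70) and Mir692-1 (4.25 against 3.23 to 3.40). It stood low for Masp1 (40.8 against 82.8 to 98.1) and Mmp2 (1588 against 1859 to 1945). Untreated replicate 2 stood high for Ccl4 (8.89 against 0 to 2.16) and Igf1 (247 against 154 to 174) and low for Pmvk (3.64 against 8.27 to 9.40). Untreated replicate 4 stood low for Nfkbia (1095 against 1640.0 to 1763) and high for Rpl28 (1497 against 1197 to 1281).

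At day 1, the shallow replicate 1 stood high for Apol6 (123 against 29.2 to 49.97), Hspa1a (12530 against 4448 to 5332) and Des (501 against 217 to 284) and low for Il33 (189 against 433 to 521). Day 1 replicate 5 stood high for Sparcl1 (434 against 196 to 255), Bmp4 (89.2 against 36.2 to 41.6) and Tslp (15.1 against 5.94 to 8.48). Ear1 was high in day 1 replicate 2 (57.1 against 6.56 to 19.8), Nfil3 in replicate 4 (116 against 64.1 to 72.2), and Ndufb7 was low in replicate 3 (237 against 349 to 387).

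At day 3, Mir692-1 stood at 1688 in replicate 5 against 6.69 to 12.4, and Lyz2 at 11.3 in the same library against 4.54 to 5.29. Replicate 3 stood high for Cx3cl1 (147 against 80.4 to 93.1) and Hexa (644 against 387 to 452). Mki67 was high in replicate 2 (1.62 against 0.28 to 0.50), and Cxcl12 was low in replicate 4 (384 against 427 to 439).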

How the results depend on the processing

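Of 3023 values for single named genes under the alternatives, 2997 kept their direction and their side of the threshold, 13 in 7 genes lost the call, 9 in 2 genes gained one and 4 in 3 genes changed sign without a call. Counts thinned to the smallest library, where fewer genes (7633) and fewer reads enter by construction, gave 1189 calls (531 higher, 658 lower), 794 returned, 78 partial, 9 overshoot, 6 kept moving, 302 late, 178 held and 801 unresolved genes. The same thinning left 11 p53 targets, 7 unfolded protein response, 7 mitochondrial ribosomal, 22 respiratory chain and 12 proteasome genes falling, and 8 collagen, 17 niche factor and 8 lysosomal genes rising. A test against a fold of 1.5 (glmTreat) gave 965 calls (445 higher, 520 lower), and an adjusted p under 0.01 gave 2083 (1006 higher, 1077 lower) with 141 partial, 15 overshoot, 8 kept moving, 476 late and 459 held genes. Limma's voom gave 701 partial, 138 overshoot, 30 kept moving and 1392 held genes, and the cause was not tested. Asking for 1.5-fold at each call left 37 overshoot genes, and total-count scaling left 7 contractile genes falling. With each library left out in turn, 39 to 90 genes overshot and 11 to 24 kept moving, and the log2 change ran from -0.35 to 0.068 for Col1a1 and from -0.11 to 0.17 for Il33. Il33 was at -0.013 with voom and Tslp at 0.71 with thinned counts. Mir692-1 lost its call under 7 settings and Lyz2 under 1. A replicate block gave 3102 calls, of which 3024 were among the 3335. In their deviations from the group mean, same-numbered day 1 and day 3 libraries correlated at 0.01, 0.07, -0.35, 0.05 and -0.08. These values gave no sign of pairing by replicate number but cannot exclude a shared animal or day. Day 1 replicate 1, the shallowest library, limits what genes with few UMIs can show.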
